A study of Mus musculus with 50 samples.

Results

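Autophagy is the route by which a cell encloses part of its own content in a double membrane, the autophagosome, and delivers it to the lysosome for breakdown. The ULK kinases start the process, small ubiquitin-like proteins of the LC3 and GABARAP families are attached to the growing membrane, and cargo receptors bind both these proteins and the material to be removed. In skeletal muscle the pathway removes damaged mitochondria and protein aggregates, and several of its genes are known to rise when muscle wastes under the control of FoxO transcription factors.

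The genes described here are 10 such genes, listed by name with earlier results of these data known, out of 23880 genes in the tables. They are the LC3 and GABARAP family members Map1lc3a, Map1lc3b, Gabarap, Gabarapl1 and Gabarapl2, the receptors Sqstm1, Bnip3 and Bnip3l, and the kinases Ulk1 and Ulk2. All 10 were found by symbol, each on 1 identifier, and all 10 passed the filter on low values, as did 12586 genes in total.

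They were measured in gastrocnemius muscle, a hind-limb muscle made mainly of fast fibres, of 50 male wild type mice of the inbred strain C57BL/6JRj. Groups of 8 mice were aged 8, 18, 22 or 24 months and groups of 9 mice 26 or 28 months, with 1 poly(A) RNA library per mouse. All mice were housed singly and ate the purified diet AIN93M, and the groups differed in the age at which they were switched to it and in how long they had eaten it. The oldest groups are limited to survivors, and animals found sick at dissection were not used. Total counts ranged from 13607229 to 21267375 per library. A single library held between 941 and 25044 reads of any one of the 10 genes, so the spread between mice and not counting error set the precision. Levels are given as CPM, counts scaled by library size and TMM factor, for comparisons of 1 gene between mice, and as TPM, which also corrects for transcript length, for comparisons between genes. The labelled tissue was checked against its markers. The fast fibre gene Tnnt3, a troponin, was the most abundant gene of the fibre list with a mean of 41563 TPM, and the lymphocyte list was led by Jchain at 4.36 TPM. In bulk tissue, fewer cells of a type and less RNA per cell cannot be told apart.

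The question was how far the genes of the autophagosome change with age in this muscle, at which age, and whether close relatives behave alike. Between 8 and 28 months, 6 of the 10 genes rose, 1 fell and 3 did not pass the test. Those that rose were Map1lc3b, Gabarapl1, Sqstm1, Bnip3, Bnip3l and Ulk1, by 1.35-fold to 1.82-fold. Ulk2 fell to 0.805 times its level. Of all 12586 genes tested, 21% were called higher and 18.7% lower in this comparison, which used edgeR's quasi-likelihood test with a Benjamini-Hochberg false discovery rate (FDR) below 0.01. With upper-quartile in place of TMM factors the balance of all genes turned, to 2249 higher and 2760 lower from 2639 and 2349, and the 10 genes were again 6 higher and 1 lower. The median log2 fold change was 0.48 over the 10 genes and 0.0072 over all genes tested.

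**Figure D1:**
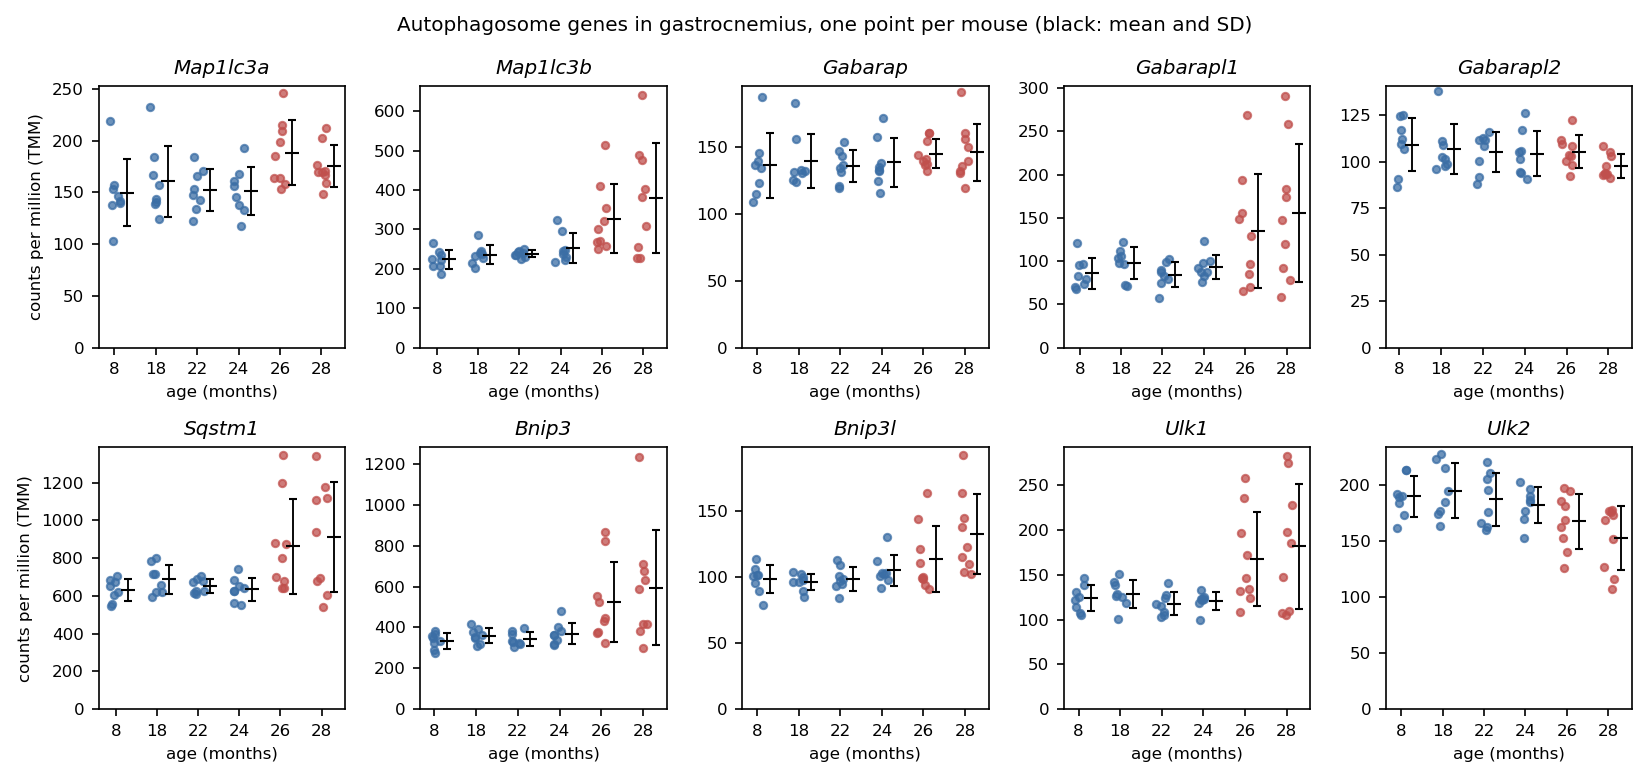
CPM (vertical axis, starting at 0) of the 10 genes in each of 50 mice by age in months (horizontal axis), with the mean and SD of each age beside the points; mice of 26 and 28 months are in red. Map1lc3b ranged from 187 to 264 CPM at 8 months and from 227 to 641 CPM at 28 months, while Gabarapl2 stayed between 86.2 and 138 CPM in every mouse.

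The sequences before the starts of 5 of the genes are shown because relatives within this small set differed in their response to age, and because a shared promoter element would be looked for there first. They come from a table of RefSeq promoters on GRCm38.p6, in which 8 of the 10 genes were matched, and are written 5′ to 3′ on the strand of the gene, ending at the start of transcription except where an annotated exon made it necessary to stop earlier. Capitals mark a match to one of 4 motifs that were searched on both strands in the 250 bases before the start. These were the FoxO element GTAAACA, the E-box CACGTG, the core of the hypoxia response element ACGTG, which every E-box also holds, and the antioxidant response core TGACNNNGC. The first 3 genes below rose between 8 and 28 months, the next fell and the last did not pass the test.

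Bnip3, chr7:138909520-138909756, minus strand: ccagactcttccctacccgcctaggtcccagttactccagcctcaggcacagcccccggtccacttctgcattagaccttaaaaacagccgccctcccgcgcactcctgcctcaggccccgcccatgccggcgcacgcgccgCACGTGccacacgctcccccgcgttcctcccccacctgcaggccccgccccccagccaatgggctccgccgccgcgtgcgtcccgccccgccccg
Map1lc3b, chr8:121590188-121590360, plus strand: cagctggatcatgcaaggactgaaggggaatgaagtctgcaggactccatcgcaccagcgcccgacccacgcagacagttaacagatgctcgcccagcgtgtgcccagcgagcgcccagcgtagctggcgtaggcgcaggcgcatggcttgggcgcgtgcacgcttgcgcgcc
Ulk1, chr5:110810098-110810331, minus strand: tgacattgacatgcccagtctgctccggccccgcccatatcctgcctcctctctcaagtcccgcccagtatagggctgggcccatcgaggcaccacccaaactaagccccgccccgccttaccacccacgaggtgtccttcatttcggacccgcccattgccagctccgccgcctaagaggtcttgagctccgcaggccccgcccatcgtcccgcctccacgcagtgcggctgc
Ulk2, chr11:61855093-61855342, minus strand: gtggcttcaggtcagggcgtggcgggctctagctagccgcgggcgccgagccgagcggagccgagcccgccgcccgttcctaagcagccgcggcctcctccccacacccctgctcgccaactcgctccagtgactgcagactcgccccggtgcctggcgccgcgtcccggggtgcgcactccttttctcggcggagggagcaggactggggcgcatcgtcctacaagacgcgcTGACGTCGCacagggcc
Gabarapl2, chr8:111940453-111940702, plus strand: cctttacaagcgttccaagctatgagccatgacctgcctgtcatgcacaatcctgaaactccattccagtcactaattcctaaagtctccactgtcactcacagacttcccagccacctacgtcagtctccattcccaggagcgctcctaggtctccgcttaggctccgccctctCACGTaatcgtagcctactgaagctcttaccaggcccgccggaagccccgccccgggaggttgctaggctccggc

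The FoxO element was in none of the 8 promoters, and in 3.17% of 32851 mouse promoters searched in the same way. Bnip3 had an E-box 108 bases before its start, a motif present in 6.02% of promoters. The hypoxia core, present in 16.6% of promoters, was found in Bnip3, Gabarapl2 and Gabarap, and the antioxidant core, present in 10.2%, in Ulk2 alone among the 8. The match of Gabarap lay inside the annotated gene. Of the 250 bases before its RefSeq start, the 227 nearest to that start were set aside because of an annotated exon. Base composition differed among genes that moved the same way. The 250 bases before Bnip3 were 72.4% G and C, those before Ulk1 67.2% and those before Gabarapl1 46.8%. All 250 bases of Gabarapl1 were set aside because of an annotated exon, so its value may not describe sequence outside the gene. These matches are descriptions of letters in a window and say nothing of binding.

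The LC3 and GABARAP proteins sit on the membrane of the autophagosome, where each is joined to a membrane lipid. They are encoded at separate loci (GRCm38, GENCODE), with Map1lc3a on chromosome 2 (155276297 to 155278073), Map1lc3b on chromosome 8 (121590361 to 121598760), Gabarap on chromosome 11 (69991143 to 69994951), Gabarapl1 on chromosome 6 (129533160 to 129542346) and Gabarapl2 on chromosome 8 (111940703 to 111953612). Map1lc3b, the form most used as an autophagosome marker, had a lowest, median and highest level of 187, 223 and 264 CPM at 8 months and of 227, 383 and 641 CPM at 28 months. Of the 9 mice at 28 months, 6 lay above every mouse of 8 months and the lowest 3 lay inside the range of 8 months. The rise was 0.76 ± 0.14 on the log2 scale (log2 fold change ± SE, n = 8 and 9, FDR 2.52e-05 in edgeR), or 1.69-fold.

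Gabarapl1, a close relative of Gabarap, had 67.9, 80.8 and 121 CPM (lowest, median, highest) at 8 months and 59.0, 148 and 291 CPM at 28 months. The 28 months group thus held both the lowest mouse of these 2 ages and 5 mice above all of 8 months. Its log2 fold change was 0.86 ± 0.23 (FDR 0.00149 in edgeR). The other 3 members did not pass the test. Gabarap had a mean of 136 ± 24.1 CPM (SD, n = 8) at 8 months and 146 ± 21.5 CPM (n = 9) at 28 months, with a log2 fold change of 0.10 ± 0.089 (FDR 0.346). Map1lc3a, the LC3 form with the highest TPM at 8 months, had 150 ± 32.4 and 175 ± 20.3 CPM, with a log2 fold change of 0.23 ± 0.11 (FDR 0.0894). On log2(TPM + 1) with limma its log2 fold change was 0.31 and passed the threshold (FDR 0.00325). In that fit the median log2 fold change over all genes was 0.063, against 0.0072 in edgeR. Gabarapl2 had 109 ± 14.3 and 97.6 ± 6.26 CPM, with a log2 fold change of -0.16 ± 0.075 (FDR 0.0700), and all 9 mice of 28 months lay below the mean of 8 months.

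Levels within the family were compared per length. At 8 months the mean levels ran from Map1lc3a (281 TPM) through Gabarap (223), Map1lc3b (199) and Gabarapl2 (151) to Gabarapl1 (112 TPM). At 28 months Map1lc3b was first (366 ± 159 TPM), Map1lc3a second (347 ± 35.2), a gap smaller than their SD, and Gabarapl2 last (141 ± 10.4 TPM). Without replicate 2, left out after its values were seen, Map1lc3a was first (348 ± 37.5 TPM, n = 8) and Map1lc3b second (324 ± 101 TPM). The summed level of the 5 genes was 965 ± 92.3 TPM at 8 months and 1328 ± 349 TPM at 28 months. Map1lc3b made up 20.7% ± 1.29 of that sum at 8 months and 26.6% ± 4.38 at 28 months, Gabarapl1 11.6% ± 1.9 and 15.5% ± 4.99, and Gabarapl2 15.7% ± 1.2 and 11.2% ± 2.55 (mean ± SD over mice). Within 1 library, the TPM ratio of Map1lc3b to Map1lc3a ranged from 0.555 to 0.839 at 8 months and from 0.645 to 2.08 at 28 months, where 6 of 9 mice were above the highest ratio of 8 months. The ratio of Gabarapl1 to Gabarapl2 ranged from 0.553 to 1.01 and from 0.600 to 3.06, with 6 of 9 mice above. Both ratios overlapped between the ages, and they are given as a description, without a test.

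The receptors tie cargo to the LC3 and GABARAP proteins. All 3 rose. Sqstm1 (chromosome 11, 50199366 to 50210827), which encodes p62 and binds ubiquitin-tagged proteins, was the most abundant of the 10 genes per length (737 ± 38.0 TPM at 8 months). Its levels at 8 months were 549, 638 and 703 CPM (lowest, median, highest), and at 28 months 541, 939 and 1344 CPM. The 9 mice of 28 months included 1 below and 5 above all mice of 8 months. The log2 fold change was 0.53 ± 0.13 (FDR 0.00103 in edgeR).

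Bnip3 and Bnip3l, on chromosome 7 (138890836 to 138909519) and chromosome 14 (66985239 to 67008877), encode related receptors in the outer mitochondrial membrane. Bnip3 had 273, 340 and 381 CPM at 8 months and 298, 591 and 1234 CPM at 28 months. There were 8 of 9 mice above the whole range of 8 months, the largest number of the 10 genes. The log2 fold change was 0.84 ± 0.18 (FDR 1.15e-04). Bnip3l had 78.6, 101 and 113 CPM at 8 months and 102, 123 and 192 CPM at 28 months, and 6 of 9 mice were above. Its log2 fold change was 0.43 ± 0.10 (FDR 6.18e-04). Per length, Bnip3 was 4.28 ± 0.337 times as abundant as Bnip3l at 8 months and 5.46 ± 1.31 times at 28 months. A part of both transcripts, 25.2% of the 31-base words of Bnip3 and 27.9% of those of Bnip3l, also occurs in other annotated genes, mainly Gm16439 for Bnip3 and the pseudogene Bnip3l-ps for Bnip3l. The authors assigned reads to protein-coding transcripts alone, so reads from such copies cannot be told apart from reads of the 2 genes. The corresponding share was 21.1% for Gabarapl2, 7.75% for Map1lc3b and 0% for the other 6 genes.

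The kinases went in opposite directions. Ulk1 (chromosome 5, 110784488 to 110810097), which receives the signals of mTORC1 and AMPK, had 105, 123 and 147 CPM at 8 months and 106, 185 and 283 CPM at 28 months. There were 6 of 9 mice above all of 8 months and the other 3 stood at its lower end. The log2 fold change was 0.56 ± 0.16 (FDR 0.00250 in edgeR). Ulk2 (chromosome 11, 61775649 to 61855073), its close relative, had 162, 190 and 214 CPM at 8 months and 108, 169 and 178 CPM at 28 months. All 9 mice lay below the mean of 8 months and 4 lay below its range. The log2 fold change was -0.31 ± 0.095 (FDR 0.00528). With limma on log2(TPM + 1), or without the filter on low counts, Ulk2 kept its direction but missed the threshold. By TPM, Ulk1 made up 46.6% ± 2.25 of the 2 kinases at 8 months and 60.1% ± 11.7 at 28 months. At 28 months the highest Ulk1 and the lowest Ulk2 were in different mice. Replicates 1 and 2 of 28 months had the highest Ulk1 (283 and 275 CPM) with Ulk2 at 173 and 169 CPM, whereas replicates 5, 7 and 8 had the lowest Ulk2 (116, 127 and 108 CPM) with Ulk1 at 198, 228 and 185 CPM. At 26 months both were in the same mouse, replicate 1, with 258 CPM of Ulk1 and 126 CPM of Ulk2.

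**Figure D2:**
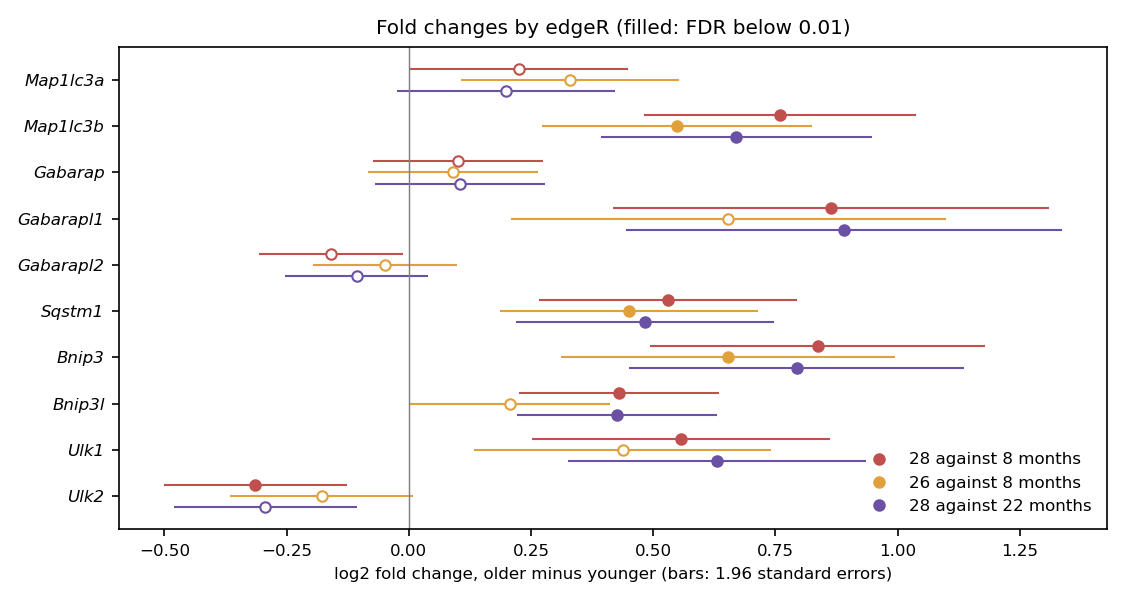
Log2 fold changes (horizontal axis, older minus younger) of the 10 genes for 28 against 8, 26 against 8 and 28 against 22 months, with bars for the confidence interval that the standard error gives; filled points passed FDR 0.01. The comparisons share mice of 8 or of 28 months. Map1lc3b, Sqstm1 and Bnip3 passed in all 3 comparisons, and Ulk2 only against 8 months, at 28 months.

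Several of these calls depended on which mice entered the fit. With only the mice of 8 and 28 months in the fit, the fold changes differed little but 3 genes were called higher, Map1lc3b, Bnip3 and Bnip3l, and none lower, against 1821 genes higher and 1622 lower in all. Gabarapl1 (FDR 0.0121), Sqstm1 (0.0123), Ulk1 (0.0233) and Ulk2 (0.0260) then missed the threshold. Leaving out single mice in the fit over 6 ages ended the call of Ulk1 without replicate 1 or 2 of 28 months (FDR 0.0116 and 0.0111). It ended that of Ulk2 without replicate 2 or 8 of 8 months or replicate 5, 7 or 8 of 28 months (FDR up to 0.0175).

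The ages before 26 months gave no call. No gene of the 10 was called at 18, 22 or 24 months against 8 months, with no unadjusted p below 0.05 among them, and DESeq2, edgeR's likelihood ratio test and limma called none either. Few genes were called at all in these comparisons. At 18 months 0.0397% of genes were called higher and 0.0318% lower, and at 22 months 0.0397% higher and 0% lower. At 24 months 0.318% were called higher and 0.294% lower. At an unadjusted p below 0.05, 264 of all 12586 genes were higher and 196 lower at 18 months. The numbers were 554 and 580 at 22 months, and 1032 and 1390 at 24 months. At 26 months Map1lc3b (log2 fold change 0.55 ± 0.14, FDR 0.00294), Bnip3 (0.65 ± 0.17, FDR 0.00391) and Sqstm1 (0.45 ± 0.13, FDR 0.00907) had risen against 8 months, and none had fallen, where 9.84% of genes were called higher and 8.54% lower. Without the filter on low counts, Map1lc3b and Bnip3 were called and Sqstm1 missed the threshold (FDR 0.0149), as it did in a fit of these 2 ages alone (FDR 0.0191). Gabarapl1 (0.65 ± 0.23, FDR 0.0230), Ulk1 (0.44 ± 0.16, FDR 0.0260) and Map1lc3a (0.33 ± 0.11, FDR 0.0221) did not pass. Against the other younger ages the quasi-likelihood test called none of the 10 at 26 months. Against 18 months the smallest FDR was 0.0125 (Map1lc3b), where 5.39% of all genes were called higher and 4.68% lower. At an unadjusted p below 0.05, 6 of the 10 were higher and 1 lower, beside 2544 and 2366 of all 12586 genes. Against 22 months the smallest FDR was 0.0177 (Bnip3), where 1.67% of all genes were called higher and 0.985% lower. At an unadjusted p below 0.05, 6 of the 10 were higher and 0 lower, beside 2159 and 1706 of all 12586 genes.

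Steps between consecutive ages gave no call for any of the 10 genes. Between 24 and 26 months, 6 of them, Map1lc3a, Map1lc3b, Gabarapl1, Sqstm1, Bnip3 and Ulk1, were higher at an unadjusted p below 0.05, with log2 fold changes from 0.31 to 0.53, and the smallest FDR was 0.0892, for Sqstm1. In this step 1374 genes were higher and 828 lower at an unadjusted p below 0.05, while 0% of genes were called in either direction by the quasi-likelihood test. In the same step 11 were called higher and 3 lower by DESeq2, of 4534 to which it gave an adjusted p, and 3 higher and 1 lower by the likelihood ratio test, none of them among the 10. The step from 26 to 28 months and that from 22 to 24 months also had 0% called in both directions, and that from 18 to 22 months 0.00795% higher and 0% lower. At an unadjusted p below 0.05 stood 1, 0 and 0 of the 10 genes in these 3 steps. Of all 12586 genes, 965 were higher and 644 lower at that p from 26 to 28 months. From 22 to 24 months the numbers were 193 and 285, and from 18 to 22 months 260 and 262.

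With the ages of each gene ordered by mean level, no neighbours in the order differed (50 neighbour pairs over the 10 genes, smallest FDR 0.0637). For each of the 6 genes that rose, 26 and 28 months were the highest pair of ages. The same held for Map1lc3a and Gabarap, which did not pass the test between 8 and 28 months. Bnip3 ran from 334 CPM at 8 months through 344 at 22, 360 at 18 and 370 at 24 months to 525 at 26 and 596 CPM at 28 months, and Ulk1 from 118 CPM at 22 months through 121 at 24, 124 at 8 and 129 at 18 months to 167 at 26 and 182 CPM at 28 months. Ulk2 had the reverse order at its lower end, with 153 CPM at 28 and 168 CPM at 26 months below 183 at 24 months.

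The mice of 22 and 28 months had been switched to the diet at about the same age, but those of 28 months had eaten it for longer, so age and time on the diet cannot be told apart. Between 22 and 28 months 6 of the 10 genes were called higher and none lower, where 16.2% of all genes were called higher and 11.5% lower. They were the genes that rose against 8 months, with log2 fold changes from 0.43 ± 0.10 for Bnip3l to 0.89 ± 0.23 for Gabarapl1. Both comparisons share the 9 mice of 28 months. Ulk2 had a log2 fold change of -0.29 ± 0.095 (FDR 0.0118). Of all calls here, 58.3% were higher with TMM factors and 43.4% with upper-quartile factors, with which the 6 genes were called too and Ulk2 was called lower. With only the 2 ages in the fit, Map1lc3b and Bnip3 alone were called. With limma on log2(TPM + 1), 5 were called and Gabarapl1 missed the threshold (log2 fold change 0.76, FDR 0.0108). Without replicate 2 of 28 months, a mouse chosen for exclusion after its values were seen, 5 were called and Sqstm1 missed the threshold (log2 fold change 0.39, FDR 0.0172). Of all genes, 1471 were then called higher and 1067 lower, in place of 2033 and 1452.

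The means hide that the old mice did not move as a group. The coefficient of variation of Map1lc3b between mice was 10.7% at 8 months, 3.38% at 22 months, 26.6% at 26 months and 36.9% at 28 months. That of Bnip3 was 11.3% at 8 and 46.9% at 28 months, that of Gabarapl1 20.9% and 51.1%, and that of Sqstm1 9.26% and 31.8%. The 3 family members that did not pass the test had a smaller spread at 28 months, with 21.6% and 11.6% for Map1lc3a, 17.7% and 14.7% for Gabarap, and 13.1% and 6.41% for Gabarapl2. The spread of the 6 rising genes lay between mice that were high in nearly all of them and mice that were not. At 28 months, replicates 2, 5, 7 and 8 exceeded all 32 mice of 8 to 24 months in each of the 6 genes, and replicate 1 did so in 5 of them. Replicates 3, 4, 6 and 9 exceeded them in none. At 26 months replicates 1 and 8 were above all 32 younger mice in 6 genes, replicate 3 in 5, replicate 6 in 4, replicates 2 and 5 in 1, and replicates 4, 7 and 9 in none. Replicate 2 of 28 months was the highest of its age in 5 of the 6 genes, with 1234 CPM of Bnip3 and 1344 CPM of Sqstm1. The library of this mouse stood apart, since its 10 most abundant genes held 16.9% of its counts, against 22.2% to 29.3% in the other 49 libraries. Without it, 5 of the 10 genes were called higher and 1 lower between 28 and 8 months, and Ulk1 missed the threshold. Of all genes, 2287 were then called higher and 2063 lower, in place of 2639 and 2349. The part of this library's composition in its high values was not tested.

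**Figure D3:**
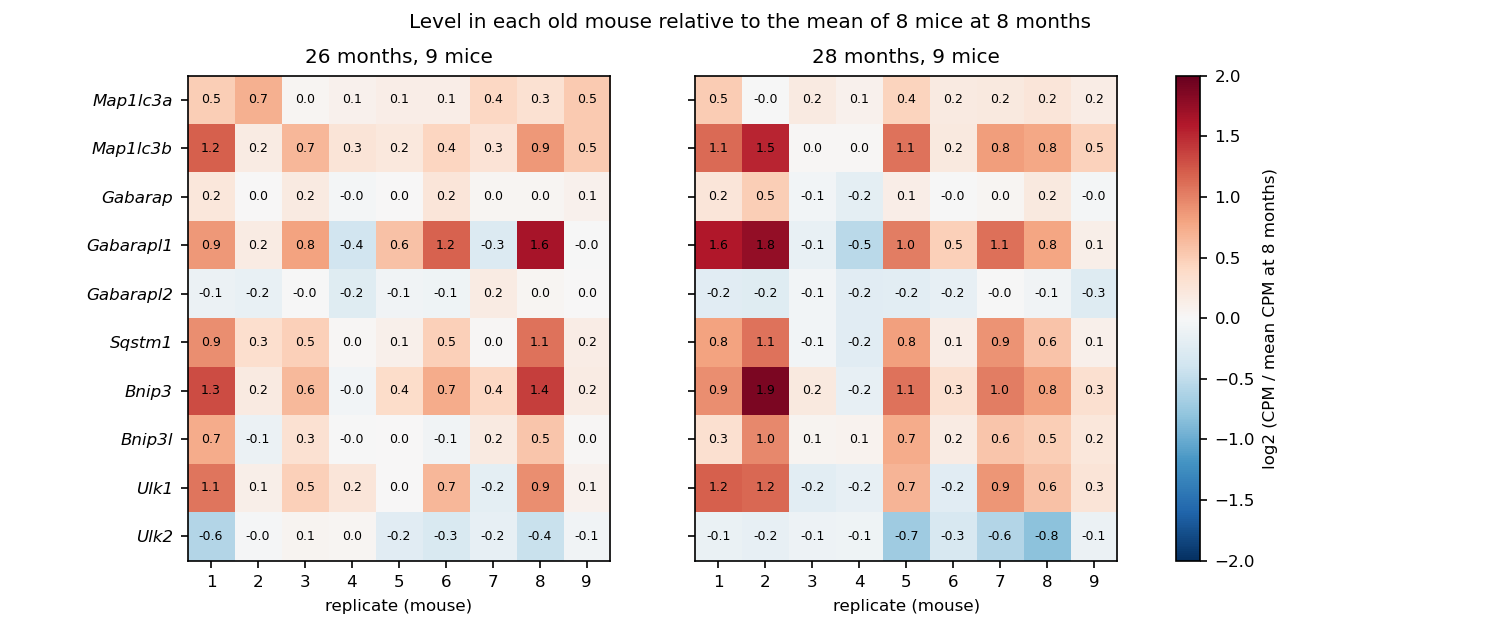
Each cell gives the log2 ratio of a gene's CPM in 1 mouse to the mean of 8 mice at 8 months, for the 10 genes (vertical axis) and the 9 mice of 26 and of 28 months (horizontal axis, by replicate number). At 28 months replicates 1, 2, 5, 7 and 8 are high in the 6 genes that rose, and replicates 3, 4, 6 and 9 are lower, while Gabarapl2 is near or below 0 in every mouse of that age.

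To see whether the genes vary together within an age, the mean of each age was taken off the log2 CPM of each gene and the 45 pairs of genes were correlated over the 50 mice. Permuting mice within ages (100000 permutations, two-sided, Benjamini-Hochberg over 45 pairs), 28 pairs were positively and 9 negatively correlated at an adjusted p below 0.05. On log2(TPM + 1) there were 22 and 2. These 37 pairs, 82.2% of the 45, had an r of at least 0.24 in size, which 40% of all pairs among 12568 genes with a unique symbol also reached. All 15 pairs among the 6 rising genes were positive, with a median r of 0.75 and a range from 0.44 to 0.89. These 6 genes were grouped because they had risen, so the figures describe them and are set against no other genes. The highest was Map1lc3b with Bnip3 (r = 0.89, rho = 0.84, p = 1e-05, the smallest that these permutations can give, adjusted p = 4.09e-05). It was 0.84 without the 2 mice farthest from the median of Map1lc3b. The lowest was Gabarapl1 with Bnip3l (r = 0.44, rho = 0.27, permutation p = 0.0225, adjusted p = 0.0298), and without the 2 farthest mice r was 0.33.

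The correlations were also computed for younger and older mice separately. Over the 18 mice of 26 and 28 months the 15 correlations ranged from 0.67 to 0.94 with a median of 0.90. Over the 32 mice of 8 to 24 months they ranged from -0.42 to 0.75 with a median of 0.066. Some pairs were high in both sets, such as Map1lc3b with Bnip3 (0.75 in the younger and 0.91 in the older mice) and Bnip3 with Bnip3l (0.74 and 0.90). The difference between these 2 sets of mice was not tested. Gabarap and Gabarapl2 had r = 0.91 over the 32 young mice and -0.064 over the 18 old ones, and Map1lc3a and Gabarap 0.86 and 0.0013. On log2(TPM + 1) the fall was smaller. Gabarap and Gabarapl2 had 0.75 in the young and 0.42 in the old mice, and Map1lc3a and Gabarap 0.68 and 0.17. Map1lc3a was nearly unrelated to the rising genes in the old mice, with r from 0.013 for Gabarapl1 to 0.18 for Sqstm1. Ulk2 was negatively related to 8 of the other 9 genes over the 50 mice, from r = -0.39 with Gabarapl1 to -0.53 with Bnip3, and its r with Ulk1 was -0.20 (permutation p = 0.303, adjusted p = 0.325). On log2(TPM + 1) that with Bnip3 was -0.29 (adjusted p = 0.113), and the negative pairs that passed there were Ulk2 with Map1lc3a and with Gabarapl2.

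**Figure D4:**
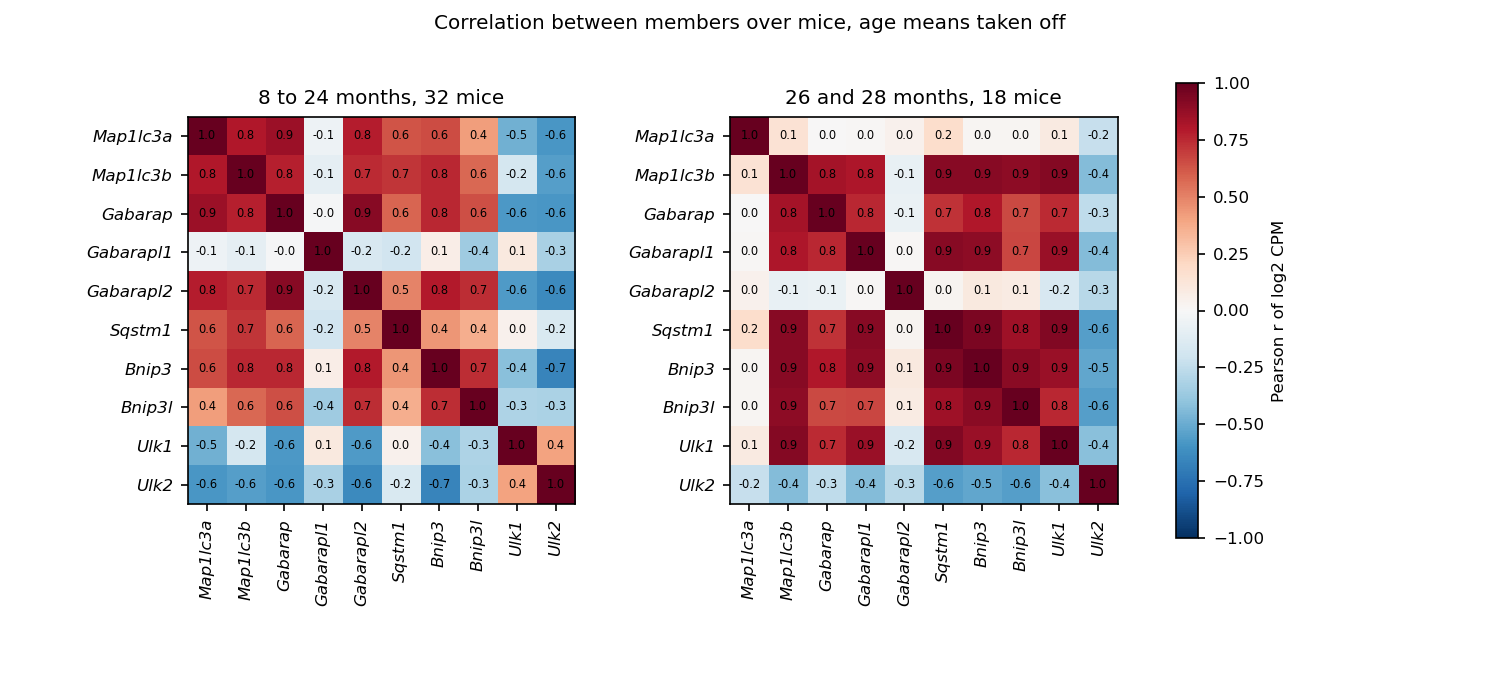
Pearson r of log2 CPM between each pair of the 10 genes after the mean of each age was taken off, over the 32 mice of 8 to 24 months (left) and the 18 mice of 26 and 28 months (right). The 15 pairs among Map1lc3b, Gabarapl1, Sqstm1, Bnip3, Bnip3l and Ulk1 lie between -0.42 and 0.75 on the left and between 0.67 and 0.94 on the right.

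Foxo1 and Foxo3 encode the FoxO transcription factors and Trim63 and Fbxo32 the muscle ubiquitin ligases MuRF1 and atrogin-1, whose rise marks wasting muscle. All 4 rose between 8 and 28 months. Trim63 went from 97.2 to 415 CPM (log2 fold change 2.10 ± 0.39, FDR 2.21e-05 in edgeR), Fbxo32 from 603 to 1852 CPM (1.62 ± 0.32), Foxo1 from 45.6 to 161 CPM (1.82 ± 0.36) and Foxo3 from 33.7 to 86.1 CPM (1.35 ± 0.20). After the age means were taken off, 26 of the 40 relations between the 10 genes and these 4 passed an adjusted p of 0.05, 25 of them positive. An r of at least 0.30 in size was reached by 67.5% of the 40, and by 46.6% of the pairs of these 4 genes with every other gene. This set of relations was chosen after earlier results were seen. The strongest was Sqstm1 with Fbxo32 (r = 0.85, permutation p = 1e-05, adjusted p = 4e-05, and also 0.85 without the 2 farthest mice), followed by Map1lc3b with Fbxo32 (r = 0.84, permutation p = 1e-05, adjusted p = 4e-05, and 0.79 without them). Over the 18 oldest mice these 2 were 0.89 and 0.94, and over the 32 younger ones 0.64 and 0.38. Map1lc3a had r from -0.087 to 0.13 with the 4 genes, and Ulk2 from -0.28 to -0.14, and none of these passed. The one negative relation that passed was Gabarapl2 with Foxo3 (r = -0.30, permutation p = 0.0111, adjusted p = 0.0171).

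For each of the 10, the 2 genes with the most similar levels over the 50 mice were found by Pearson r. For Map1lc3b they were Eif4ebp1 (r = 0.97), which encodes a repressor of cap-dependent translation, and the lysosomal protease Ctsl (0.96). For Sqstm1 they were Psmc2 (0.94), a proteasome subunit, and Gnl3 (0.94), and for Bnip3l Eif3j1 (0.91) and the proteasome subunit Psmc6 (0.90). Bnip3 was most like Atp6v1h (0.94), a subunit of the proton pump that acidifies lysosomes, and Rsl1d1 (0.94), Gabarapl1 like Mafk (0.90) and Dctn4 (0.89), and Ulk1 like Pnpla7 (0.92) and Prpf6 (0.91). Map1lc3a was most like the ribosomal protein genes Rpl8 (0.79) and Rpl18 (0.79), Gabarap like Rps6 (0.89), also a ribosomal protein gene, and Btf3 (0.86), and Gabarapl2 like Spcs1 (0.93) and Aimp1 (0.90). Ulk2 was most like Gid4 (0.87) and Ibtk (0.86). With the age means taken off, the closest gene was Ctsl for Map1lc3b (0.96), Sidt2 for Ulk1 (0.90) and Cystm1 for Map1lc3a (0.83), and for each of the other 7 genes it was the same gene as before. These are the highest of the correlations of each gene with all other genes tested and carry no test.

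The rest of the pathway moved in part. Of 79 further autophagy genes grouped by role, 77 were tested, and 33 rose, 8 fell and 36 did not pass between 8 and 28 months, beside 21% higher and 18.7% lower among all genes. Their median log2 fold change was 0.18, against 0.0072 over all genes. The 3 partners of the ULK kinases all changed. The scaffold Rb1cc1 (0.65 ± 0.12) and Atg13 (0.43 ± 0.063) rose and Atg101 fell (-0.41 ± 0.11). In the class III PI3-kinase complex, which marks the membrane on which the autophagosome forms, 4 of 8 genes rose, led by Atg14 (0.69 ± 0.098), Uvrag (0.67 ± 0.090) and Ambra1 (0.47 ± 0.084), and none fell. Becn1, named here after its values were seen, was at 74.0 and 73.1 CPM (log2 fold change -0.018 ± 0.056, FDR 0.806). Among the genes of membrane supply, 4 of 10 rose and none fell, and Zfyve1, which encodes the omegasome protein DFCP1, went from 36.3 to 100 CPM (1.46 ± 0.23, FDR 2.17e-06). Atg2b (0.53) and Wipi2 (0.33) rose as well.

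Of 11 genes for the enzymes that attach the LC3 and GABARAP proteins to membrane, and cut them off again, 1 rose and 3 fell, beside 21% higher and 18.7% lower among all genes, and their median log2 fold change was -0.12. Atg7, the activating enzyme, rose (0.48 ± 0.092), and the proteases Atg4c (-0.47 ± 0.093) and Atg4d (-0.42 ± 0.076) fell, as did Atg10. Among 18 further cargo receptors and mitophagy genes 7 rose and 1 fell. Retreg1, listed as Fam134b in the tables and the receptor for the endoplasmic reticulum, went from 143 to 538 CPM (1.91 ± 0.28, FDR 7.17e-07), and Tollip (0.74) and Nbr1 (0.71), a relative of Sqstm1, also rose. For the fusion of autophagosome and lysosome 7 of 13 genes rose and 2 fell. Plekhm1 (0.62) and Vps33a (0.38) were higher and Vamp8 (-0.48) was lower. Among 14 regulators 8 rose and 1 fell, with Foxo1, Foxo3 and Atf4 (0.56 ± 0.13) leading. Tfeb, which controls lysosomal genes and is named here after its values were seen, had a log2 fold change of 0.12 ± 0.089 (FDR 0.281). Of 13 wasting genes outside autophagy 11 rose, with a median log2 fold change of 1.62, above that of any of the 10 genes. Metallothioneins Mt2 (3.63 ± 0.57) and Mt1 (2.84 ± 0.50) and the growth arrest gene Gadd45a (2.30 ± 0.31) led them. Their members had been listed as genes known to rise in wasting muscle, with earlier results of these data in view, so their direction is not independent evidence.

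**Figure D5:**
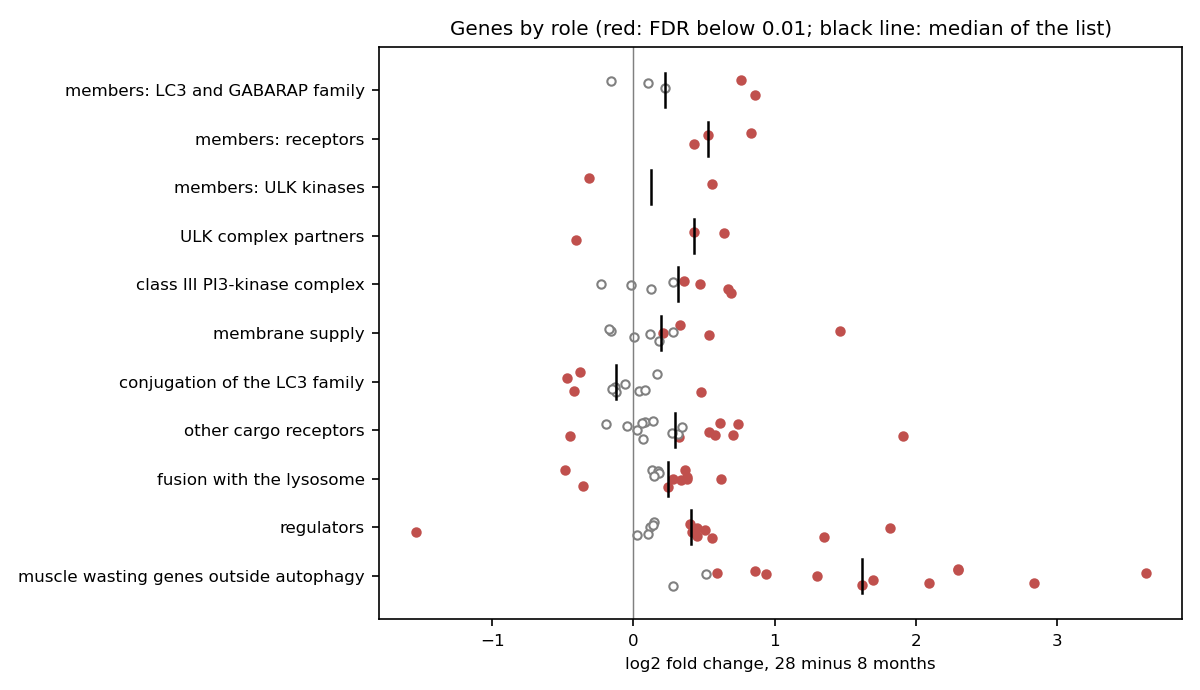
Log2 fold change between 28 and 8 months (horizontal axis) of each tested gene of the autophagy lists and of the wasting list (vertical axis); red points passed FDR 0.01, open points did not, and the black line is the median of a list. The median is -0.12 for the genes of conjugation, between 0.12 and 0.53 for the other autophagy lists, and 1.62 for the wasting genes.

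Markers of other cells and states moved with age too, and their part in the changes of the 10 genes was not tested. The counts below stand beside 21% higher and 18.7% lower among all genes between 8 and 28 months. Of 10 macrophage genes 7 rose, and their summed level was 258 ± 54.7 TPM at 8 months (194 to 332) and 440 ± 155 TPM at 28 months (303 to 822). Their most abundant gene was Lyz2 (183 TPM over all mice), and the highest mouse was replicate 2 of 28 months. Of 9 denervation genes tested 7 rose, and the sum of the list, whose most abundant gene was Myh8, went from 165 ± 44.6 to 268 ± 57.1 TPM with the highest value in replicate 1 of 28 months. Of 8 glucocorticoid-induced genes 6 rose, led in abundance by Tsc22d3, and their sum went from 702 ± 160 TPM (487 to 905) to 1281 ± 510 TPM (493 to 2166), highest in the same replicate 1. Of 10 hypoxia genes 4 rose and 2 fell, with Pfkfb3 the most abundant and sums of 428 ± 66.2 and 716 ± 243 TPM. Of 7 genes of the oxidative stress response 4 rose, with Txnrd1 the most abundant and sums of 233 ± 31.2 and 378 ± 225 TPM, and the sum was again highest in replicate 1.

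The other lists had calls in different directions, beside 21% higher and 18.7% lower among all genes. A count near these shares is not read as a change of the list. Of 6 fibroblast genes 4 fell, and their sum, led by Dcn, was 935 ± 133 and 697 ± 68.2 TPM. Of 6 adipocyte genes 4 fell, with Fabp4 the most abundant and sums of 683 ± 119 and 496 ± 125 TPM. Of 5 erythroid genes 1 rose, and their sum, mostly of Hbb-bs, ranged from 900 to 3293 TPM at 8 months and from 587 to 6299 TPM at 28 months. None of 8 slow fibre genes passed the test, with Myl2 the most abundant and sums of 1807 ± 903 and 2747 ± 1208 TPM. Myh2, the gene of type IIA fibres, had 92.9 ± 43.1 and 147 ± 34.7 TPM. Of 8 genes of fibre identity 2 rose and 1 fell. Of 5 endothelial genes, led by Pecam1, 1 fell, and of 4 satellite cell genes, led by Sdc4, 1 rose. Of 10 clock genes, led by Tef, 1 rose and 1 fell. The lymphocyte list had 1 gene above the filter, Jchain, which rose from 0.717 to 4.67 CPM.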

How the data were processed

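RNA of 50 gastrocnemius muscles was sequenced as stranded poly(A) libraries. Reads were trimmed with cutadapt 1.9.1 and assigned by the authors with kallisto 0.43.1 to protein-coding transcripts of GRCm38, per the labels and the Methods of the study. The counts, as deposited, were summed by the authors over the transcripts of a gene and are not normalized. The TPM values, as deposited, were scaled by the authors for transcript length and library size.

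Counts were tested with edgeR 4.0.16 in R 4.3.3 (TMM, quasi-likelihood, 1 fit over 6 ages, a floor of 1 CPM in 8 or more libraries, FDR 0.01). An SE is the log2 fold change divided by the root of the F statistic. DESeq2 1.42.0, limma 3.58.1 on log2(TPM + 1) and log2(TPM + 0.1), other factors and filters, fits of 2 ages, a replicate block and the omission of each mouse were alternatives. The procedure was tested on simulated data. Age and replicate came from the sample labels. The p-values of the main fit weigh a difference between ages against the spread between mice, estimated over all 6 ages together. That spread differed between ages, for Map1lc3b from a coefficient of variation of 3.38% at 22 months to 36.9% at 28 months.

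The 10 genes, the lists, the motifs and the tests were chosen with earlier results of these data known. Genes were named by rule: all 10, up to 3 genes per autophagy or wasting list with the largest change past FDR 0.01 and a mean of at least 5 CPM, Foxo1, Foxo3, Trim63 and Fbxo32, the 2 genes most like each of the 10, and the most abundant gene of each marker list. Retreg1 was found under an older symbol, and 5 listed genes (Epg5, Myh3, Trbc2, Ahsp and Cldn5) were not analysed here. No 2 libraries of an age agreed within counting error.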

Additional observations from a re-analysis of the deposited data

Results flagged for a closer look

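Within each age the highest or lowest mouse of a gene stood apart by Dixon's criterion in 5 of 60 groups, where chance gives about 1 in 20. Bnip3 in replicate 2 of 28 months was at 1234 CPM, and the next mouse of that age at 710 CPM. Replicate 3 of 8 months was the highest of its age in Map1lc3a (219 CPM, next 157) and in Gabarap (187 CPM, next 146). Gabarapl2 was at 138 CPM in replicate 2 of 18 months (next 111), and Ulk1 at 99.0 CPM in replicate 3 of 24 months (next lowest 119). Without replicate 2 of 28 months the log2 fold change of Bnip3 between 28 and 8 months was 0.63 in place of 0.84.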

How the results depend on the processing

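Between 28 and 8 months every one of the 10 genes kept its direction under all 25 alternatives. Over the settings that left out 1 mouse each, 6 to 7 of the 10 were called. With only the 2 ages in the fit, 3 were called between 28 and 8 months and 2 each between 28 and 22 and between 26 and 8 months, in place of 7, 6 and 3, and the spread was then estimated from these mice alone. Pairs of genes that varied together numbered 24 on log2(TPM + 1), in place of 37 on log2 CPM. Map1lc3a passed with limma on TPM with either pseudocount, where Ulk2 missed the threshold (log2 fold change -0.23 with both, FDR 0.0922 and 0.0919). Without the filter on low counts Ulk2 missed it too (-0.31, FDR 0.0121). On log2(TPM + 1) limma called 2802 of all genes higher and 1758 lower, in place of 2639 and 2349. Their median log2 fold change was 0.063 there, in place of 0.0072. The causes were not tested. Labels give the same replicate numbers at each age. Same-numbered mice of 28 and 8 months did not deviate together (r from -0.16 to 0.15 over 8 pairs). For 26 and 8 months r ran from 0.016 to 0.28, and for 28 and 22 months from -0.21 to 0.31. It ran from -0.10 to 0.35 for 24 and 22 months, where 6 of 8 pairs were above 0.1. Whether the numbers pair mice was not tested. With the number as a replicate block, 7 genes were called between 28 and 8 months and 3 between 26 and 8 months. Between 28 and 22 months the block added Ulk2 (log2 fold change -0.33, FDR 0.00376) to the 6 called. Leaving out replicate 2 of 28 months, added after seeing the data, left 5 called between 28 and 22 months and 0 between 28 and 26 months. Among all genes, the fit of 2 ages called 1141 higher and 742 lower between 28 and 22 months (2033 and 1452 with 6 ages), and DESeq2 called 93 higher and 97 lower between 24 and 8 months (40 and 37 in edgeR) and 30 and 4 between 22 and 8 months (5 and 0). Depth does not limit these genes, each with at least 941 reads per library.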
